A study of Mus musculus with 1 sample.

Results

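The 6 conventional actin genes of the mouse, Acta1, Acta2, Actb, Actc1, Actg1 and Actg2, were examined in RNA sequencing of 1 pancreas fibroblast culture. They were taken by symbol, with earlier results of these data known. All 6 had a row of their own, among 23386 genes of the table. The library came, by its labels, from total RNA of fibroblasts expanded in vitro from normal pancreas. The animal was of mixed C57BL/6 and BALB/c background, Cre-negative (tf1acre-) and homozygous for a floxed gene that the label spells Tgfrb2 (Tgfrb2flox/flox). By its title, the series set such cells against cancer-associated fibroblasts. Only this 1 library was analysed, so the conditions are not compared. The value column of its table carries a CAF code, which disagrees with that label, and it is therefore called the library labelled normal fibroblast.

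Actins are the subunits of microfilaments, which give a cell its shape, drive its movement and, with myosin, its contraction. Mammals have 6 isoforms, each from a gene of its own: the cytoplasmic beta actin (Actb) and gamma actin (Actg1) of nearly every cell, the smooth muscle alpha actin (Acta2) and gamma actin (Actg2), and the alpha actins of skeletal muscle (Acta1) and heart (Actc1). Acta2 is the customary marker of myofibroblasts, the contractile state that fibroblasts and pancreatic stellate cells take on in wounds, fibrosis and tumour stroma, and often in culture. Serum response factor (SRF) drives muscle and cytoplasmic actin genes through CArG boxes, and its coactivators MRTF-A and MRTF-B are held back by actin monomers.

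The isoforms differ most at the start of the protein, and the first 60 coding bases are shown here because they separate the 6 genes. Each was read from the GENCODE M21 transcript (GRCm38) that matched the accession in the table, 5′ to 3′ from the start codon. Capitals mark bases that differ from Actb after codon alignment, or codons that Actb lacks.
Actb: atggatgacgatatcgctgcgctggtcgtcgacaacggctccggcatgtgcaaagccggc
Actg1: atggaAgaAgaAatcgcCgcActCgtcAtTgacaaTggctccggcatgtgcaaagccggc
Acta2: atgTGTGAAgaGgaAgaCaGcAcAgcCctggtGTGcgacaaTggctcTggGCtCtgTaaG
Actg2: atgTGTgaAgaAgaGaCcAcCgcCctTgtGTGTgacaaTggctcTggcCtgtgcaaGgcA
Acta1: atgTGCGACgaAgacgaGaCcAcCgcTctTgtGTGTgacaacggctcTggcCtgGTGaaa
Actc1: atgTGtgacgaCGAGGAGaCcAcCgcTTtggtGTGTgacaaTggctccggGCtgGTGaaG
In this stretch 9 bases of Actg1 differed from Actb, against 20 to 25 in the 4 muscle actins. Over the whole protein, the translated Actb and Actg1 differed at 4 of 375 residues, and Acta2 and Actg2 at 3 of 377 aligned positions, of which 1 was a gap. Between a muscle and a cytoplasmic actin, 22 to 26 positions differed. The proteins were thus 93.1% to 99.2% identical, while their coding bases were only 82.0% to 88.6% identical, because most codon differences leave the amino acid unchanged (151 of 159 between Acta1 and Acta2).

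**Figure D1:**
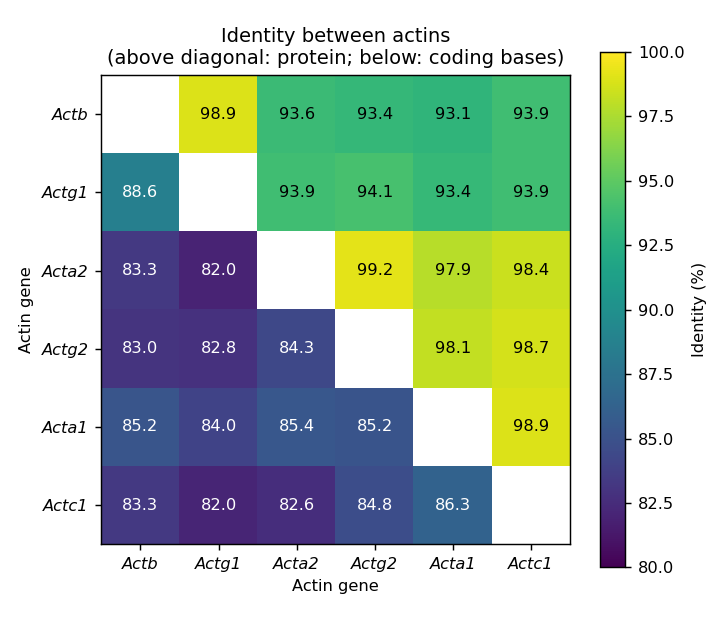
Identity in percent between the 6 actins, for the translated proteins above the diagonal and for aligned coding bases below it. The smooth muscle pair has the highest protein identity (99.2%) and the cytoplasmic pair the highest coding identity (88.6%).

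Actb and Acta2 made up nearly all of the actin transcripts. The 6 genes held 880768 of 52494688 reads, or 1.68% of the library (exact Clopper-Pearson interval 1.67% to 1.68%). Actb and Acta2 together took 96.7% of the actin reads (96.68% to 96.75%). Every interval given is a 95% interval for counting error only; there was no replicate, reads are not independent molecules, and the variation between cultures is not covered. All 6 genes had at least 10 reads, the detection threshold used, against 63.9% of all genes, and 2 of the 6 reached 1000 CPM (reads per 1000000 reads of the table), against 0.368% of all genes.

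Among the cytoplasmic actins, Actb (GRCm38 chromosome 5, 142903115 to 142906754, minus strand, 6 exons) had 517924 reads, or 9866 CPM (exact Poisson interval 9839 to 9893). This was 58.8% of the actin reads (58.7% to 58.9%), and the gene was at rank 6 of all genes by reads, directly below Fn1 with 555473 reads. Actg1 (chromosome 11, 120345690 to 120348542, minus strand, 6 exons) had 26754 reads, or 509.7 CPM (503.6 to 515.8), which was 3.04% of the actin reads (3.002% to 3.07%) and rank 216. Actb therefore had 19.4 times as many reads as Actg1 (19.1 to 19.6). The reads of Actg1 carry a limit described further on, since copies of its coding sequence stand elsewhere in the genome.

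Of the smooth muscle actins, Acta2 was abundant and Actg2 was not. Acta2 (chromosome 19, 34241090 to 34255590, minus strand, 9 exons) had 333891 reads, or 6360 CPM (6339 to 6382), 37.9% of the actin reads (37.8% to 38.0%). It was at rank 9, directly below the filamin gene Flna with 351736 reads. Actg2 (chromosome 6, 83512905 to 83536265, minus strand, 9 exons), the isoform of visceral smooth muscle, had 1575 reads, or 30.003 CPM (28.5 to 31.5), and took 0.179% of the actin reads (0.170% to 0.188%). The reads of Acta2 were 212 times those of Actg2 (202 to 223), although the proteins differ at only 3 aligned positions. The ratio was 150.3 after division by exonic length and 136 to 139 after division by the matched transcript or by its unique positions. Set against beta actin, Acta2 had 0.645 times the reads of Actb (0.642 to 0.647).

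The striated muscle actins were scarce but present. Actc1 (chromosome 2, 114047282 to 114053548, minus strand, 7 exons), the cardiac isoform, had 354 reads, or 6.74 CPM (6.06 to 7.48), and 0.0402% of the actin reads (0.0361% to 0.0446%). Acta1 (chromosome 8, 123891769 to 123894751, minus strand, 7 exons), the skeletal isoform, had 270 reads, or 5.14 CPM (4.55 to 5.79), and 0.0307% of the actin reads (0.0271% to 0.0345%). Both lay close to the median of all protein-coding genes, 4.71 CPM, and below the 21.4 CPM of coding genes with at least 10 reads. Actc1 had 1.31 times the reads of Acta1 (1.12 to 1.54), the closest of the neighbours in the order of the 6 genes. No intervals of neighbours in that order overlapped, so each step was larger than the counting error. Summed, the 4 muscle actins held 38.2% of the actin reads (38.1% to 38.3%), which was 0.617 times the reads of the cytoplasmic pair (0.614 to 0.620).

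Longer transcripts collect more reads, so the levels were also divided by the exonic length of each gene, 1536 bases for Acta1 to 2679 bases for Actb. On this scale, reads per kilobase of exon per 1000000 reads (RPKM), Actb had 3683 and Acta2 2896, the highest and second highest of all protein-coding genes. Actg1 followed with 192 (rank 99 among coding genes), Actg2 with 19.3 (rank 2321), Actc1 with 4.17 (rank 7503) and Acta1 with 3.35 (rank 8180). The order of the 6 genes was the same as by reads. As shares of the length-divided sum, Actb came to 54.2% and Acta2 to 42.6%, and the ratio of muscle to cytoplasmic actins was 0.754 in place of 0.617. The direction of this move depended on the length used: division by the matched transcript, 1333 bases for Actg2 to 2035 for Acta2, gave 36.5% for Acta2, 60.1% for Actb and a ratio of 0.585.

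**Figure D2:**
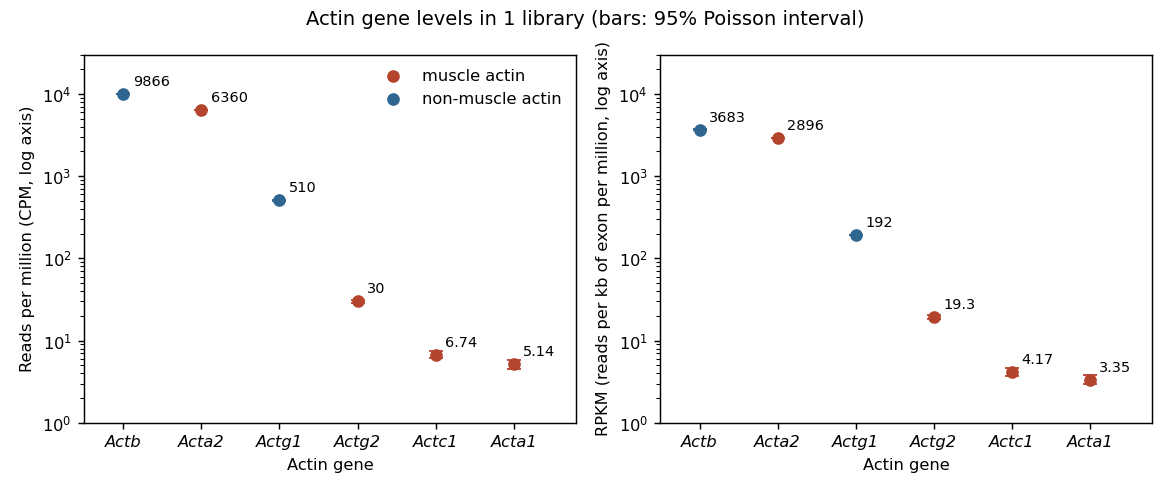
Levels of the 6 actin genes in the library labelled normal fibroblast, as CPM (left) and RPKM (right), on log axes, with 95% Poisson intervals as bars. Levels run from 9866 CPM for Actb to 5.14 CPM for Acta1, and the order is the same in both panels.

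**Figure D3:**
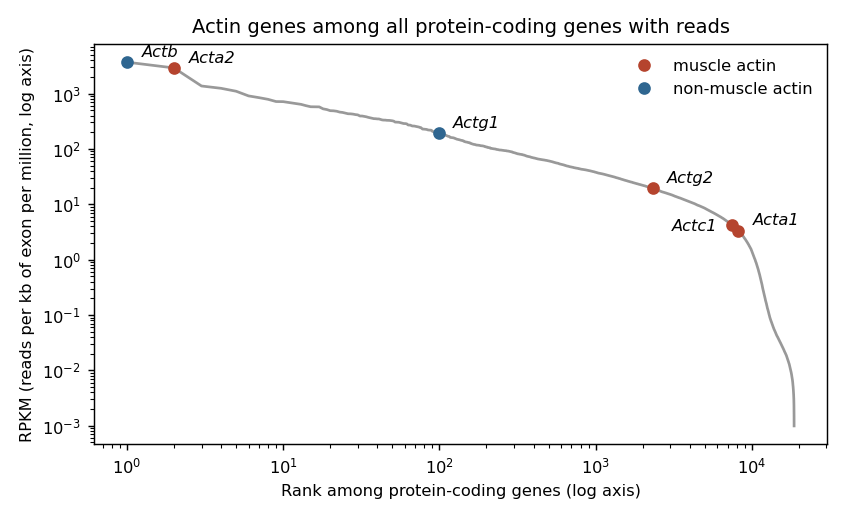
RPKM of all protein-coding genes with reads, by rank, on log axes, with the actin genes marked. Actb and Acta2 are at ranks 1 and 2, Actg1 at 99, and Actc1 and Acta1 at 7503 and 8180.

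Paralogs as alike as these can exchange reads, and neither the read length nor the authors' treatment of reads with several matches is known from the labels or the table. The exposure to such exchange was therefore measured on the reference. Each transcript was cut into all its 50-base words, and a word was called shared where the identical word occurs in a transcript of another actin gene. Exact sharing was small: 2.57% of the positions of Actb, 2.004% of Acta1, 1.94% of Actg1, 0.352% of Acta2, and 0 of 1424 for Actc1 and of 1284 for Actg2. All shared words lay in coding sequence. With 35-base words the shares were 0.278% (Actc1) to 6.04% (Actb), and with 75-base words at most 0.219% (Acta1).

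Exact stretches of 56 bases or more joined the cytoplasmic pair or a muscle and a cytoplasmic actin, and examples are shown because a read that lies inside one cannot be assigned to either gene by its bases. The longest stretch of Actb and Actg1 covered coding bases 889 to 950 of both, and that of Acta2 with Actg1 covered bases 910 to 965 of Acta2. For the smooth muscle pair the longest, at bases 637 to 665 of Acta2, was shorter than a 35-base word. Among the muscle actins, the longest was one of 38 bases between Actc1 and Actg2.
Actb and Actg1: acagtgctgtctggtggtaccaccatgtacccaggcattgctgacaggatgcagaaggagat
Acta2 and Actg1: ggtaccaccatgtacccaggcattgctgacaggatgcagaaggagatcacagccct
Acta2 and Actg2: gacatcaaggagaagctgtgctatgtagc
These runs were 62, 56 and 29 bases long. The longest run of any pair, 77 bases, joined Acta1 and Actb, and 1 of 59 bases joined Acta1 and Actg1. Neither is shown. Acta2 and Actb, the 2 abundant genes, shared a run of at most 47 bases, below the 50-base word. Acta2 and Actg2 thus have no exact 35-base word in common, while Actb and Actg1 share 30 positions of 50 bases. Exact words leave out near matches, which are counted next.

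Alignment usually tolerates some mismatches. Counting 50-base windows within 2 mismatches of another actin, the share was 10.5% for Actb, 9.66% for Acta1, 9.14% for Actg1, 6.25% for Actc1, 5.30% for Actg2 and 1.81% for Acta2. Such windows made up 18.3% of the coding windows of Actb and 3.32% of those of Acta2. None lay outside the coding sequence in any of the 6 genes. There the median window had 24 or 25 mismatches to the nearest other actin, against 5 or 6 inside the coding sequence.

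**Figure D4:**
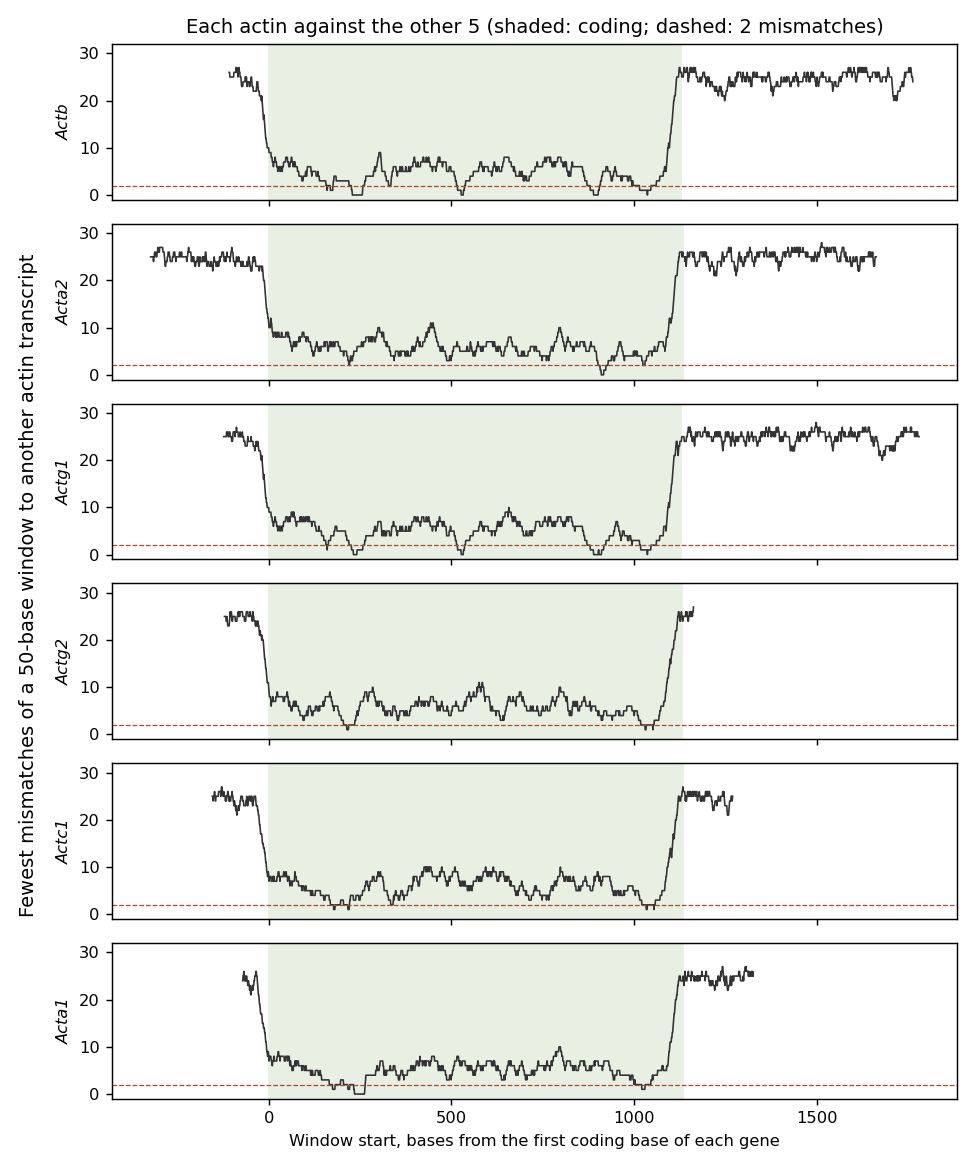
Fewest mismatches between each 50-base window of an actin transcript and any window of the other 5 transcripts, by distance from the first coding base, with the coding sequence shaded and 2 mismatches dashed. Windows of the coding sequence have a median of 5 or 6 mismatches and those outside it 24 or 25.

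Acta1 is scarce and shares words with the most abundant actin. It has 28 positions of 50 bases in common with Actb, whose mean density was 269.8 reads per base of its transcript. Were the reads 50 bases long and evenly spread, about 7553 Actb reads would have begun at those positions, against 270 reads in the whole row of Acta1, which equal 0.0521% of the reads of Actb. For Actg1, which shares 30 positions with Actb, the same calculation gives about 8093 Actb reads, against 26754 in its row. What part shared reads have in either level was not tested. Actc1 shares no 50-base word with another actin.

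Sharing was far larger with copies outside the 6 genes, and it fell mainly on Actg1. Of its 50-base positions, 56.7% occur in some other gene of the annotation, and of its coding positions 1079 of 1079 do. Processed pseudogenes, intronless copies of spliced messages, account for 1063 of these 1079 positions. Gm12715 on chromosome 4 alone carries 973 of them, Gm8399 on chromosome 13 carries 677 and Actg-ps1 on chromosome 8 carries 424. The untranslated parts of Actg1 held no shared word. Actb had 14.2% of its positions shared with any other gene, of which 179 positions were with Lrrc58 and 126 with the transcribed pseudogene Gm15725, both on chromosome 16. In all, 12 pseudogenes shared a 50-base word with Actg1 and 14 with Actb, 8 with Acta1, 5 with Acta2, and 0 with Actc1 and Actg2. No row of the table carries the name of any of these pseudogenes. Over 13883 protein-coding genes with at least 10 reads, the median share of a gene's 50-base words, taken over all its transcripts, that occur in another gene was 0%. On that measure Actg1 had 37.4%, with 417 genes above it, Actb 9.12%, Acta1 2.02%, Acta2 0.326%, and Actc1 and Actg2 0%.

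**Figure D5:**
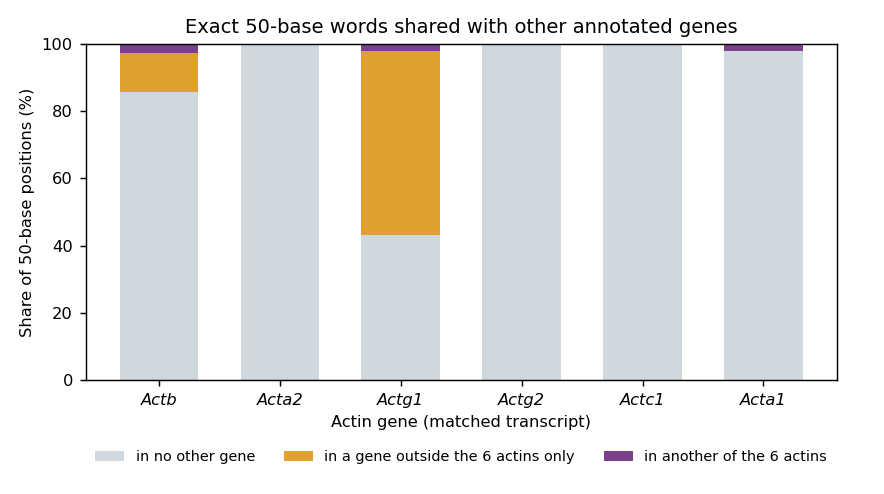
Share of the 50-base positions of each actin transcript found in another of the 6 actins, only in a gene outside them, or in no other annotated gene. The share in no other gene is 43.3% for Actg1, 85.8% for Actb and 97.8% to 100% for the 4 muscle actins.

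Which way this moves the counts depends on the treatment of multiply matching reads. If only reads with 1 match had been kept, the reads of Actg1 would come from 824 of its 1903 positions. Divided by such positions, Actg1 came to 6.18% of the actin sum and the ratio of Actb to Actg1 was 9.94, in place of 19.4 by reads. Under the same division Actb held 61.4% and Acta2 32.1%. Actb was the higher of the cytoplasmic pair under each of the 7 divisions tried, and Acta2 the higher of the smooth muscle pair. The divisors differed far less within a pair than the reads did, so none of these divisions could have reversed either order.

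The promoters of the actin genes were searched for CArG boxes, the element that SRF binds. RefSeq windows (GRCm38.p6) from 250 bases before to 50 after the gene start were at hand for 4 of the 6 genes, Acta1, Acta2, Actc1 and Actg1. A box with its full consensus stood in 3 of them, against 1.63% of 32851 windows of the same length, and none in Acta2. When 1 of its 6 inner bases was allowed to be other than A or T, all 4 held at least 1 box, against 9.98% of all windows, and Acta1, Acta2 and Actc1 held at least 2, against 0.822%. Boxes with their surroundings are given on the minus strand, with the box in capitals. The positions before the gene start are those of the first base of the box, counted from the RefSeq start of each window. That start lies inside the GENCODE gene by 217 bases for Acta2, 673 for Actc1 and 47 for Actg1, and 24 bases outside it for Acta1.
Acta2, 84 bases before, chr19:34255438-34255467: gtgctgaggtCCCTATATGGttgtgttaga
Acta2, 34 bases before, chr19:34255388-34255417: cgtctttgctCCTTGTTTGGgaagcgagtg
Actg1, 90 bases before, chr11:120348566-120348595: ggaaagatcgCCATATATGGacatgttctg
Actc1, 47 bases before, chr2:114052903-114052932: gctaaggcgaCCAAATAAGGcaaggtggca
Acta1, 73 bases before, chr8:123894829-123894858: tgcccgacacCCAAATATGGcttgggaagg
The boxes of Acta2 each carry 1 inner base other than A or T, and the other 3 shown match in full. A match is a property of these letters. Beside the levels, the window with no full box was that of Acta2 at 6360 CPM, and those with a full box were of Actg1 at 509.7 CPM, Actc1 at 6.74 CPM and Acta1 at 5.14 CPM. A relation between box and level was not tested, and Actb, at 9866 CPM, and Actg2 had no window.

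Of the genes of SRF and its coactivators, 3 of 4 had at least 10 reads, against 67.6% of protein-coding genes. Srf had 7686 reads, or 146 CPM (143 to 149.7), and 50.6 RPKM. Mkl1 and Mkl2, the genes of MRTF-A and MRTF-B, had 28.7 RPKM and 11.5 RPKM. Myocd, the gene of the muscle-restricted coactivator myocardin, had 9 reads, or 0.171 CPM (0.0784 to 0.325).

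Genes whose products handle actin were mostly detected; for comparison, 67.6% of protein-coding genes had at least 10 reads. Among monomer binders 12 of 13 did, with a median of 128 CPM. Tmsb4x, which sequesters monomers, had 576 RPKM, Pfn1, the profilin that charges and delivers monomers, 248, and Cap1, which helps recycle them, 228. The most reads of the list fell on these genes, while by RPKM Dstn, at 263, stood above Pfn1 and Cap1. On this scale each was below Actb (3683) and Acta2 (2896), and Pfn1 and Cap1 stood close to Actg1 (192). Of the filament nucleators and elongators 30 of 34 were detected, and the most reads fell on the Arp2/3 subunit gene Arpc2 (160.02 RPKM), the formin gene Fmn1 (15.1 RPKM) and the subunit gene Arpc4 (77.4 RPKM). Capping and severing proteins had 14 of 16 members detected, with the severing protein gene Gsn at 144 RPKM. Bundling proteins had 11 of 12, with the fascin gene Fscn1 at 295 RPKM and the alpha-actinin genes Actn4 at 194 and Actn1 at 95.9 RPKM.

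Actin needs the chaperonin CCT to fold, and all 18 genes of folding and modification were detected, with a median of 56.0 CPM. For this count and those of the lists below, the comparison is 67.6% of protein-coding genes with at least 10 reads. The most reads fell on Cct2 (197 RPKM), Tcp1 (77.6 RPKM) and Cct5 (123 RPKM), all chaperonin subunits. Setd3, the enzyme that methylates a histidine of actin, had 4.75 RPKM, and Nat6 (now Naa80), which acetylates the processed amino terminus of actins, had 4.32 RPKM. Of the actin-related proteins, more distant relatives that serve in dynactin, the Arp2/3 complex and chromatin remodelling, 10 of 11 were detected, led by the dynactin subunit gene Actr1a at 61.6 RPKM and the Arp2/3 subunit gene Actr2 at 42.6 RPKM. The actin-like genes, several of them testis genes, were near the floor: 1 of 9 had at least 10 reads, Actl7b with 15. Actbl2, an intronless relative of the cytoplasmic actins, had 7 reads, so that adding its row changed no actin share beyond counting error.

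Markers of cells that could bring muscle actins were set beside these levels. All 8 fibroblast markers were detected, against 67.6% of protein-coding genes. Their median was 1413 CPM, with Col1a2 at 3021 CPM and Vim at 2859 CPM. The smooth muscle markers had 6 of 8 detected and summed to 606 CPM. Cnn1 had 250.1 CPM, Smtn 174 CPM, Lmod1 75.2 CPM and Des 71.1 CPM. Myh11, the myosin heavy chain of differentiated smooth muscle, had 29.4 CPM, and Pcp4l1 had 7 reads. The pericyte list summed to 78.9 CPM, mostly Mcam at 69.6 CPM, and Rgs5 had 6 reads. Pdgfrb, at 459 CPM, was counted among the fibroblast markers and not in that sum. Whether smooth muscle cells or pericytes had a part in the Acta2 level was not tested, and in bulk RNA a few cells with much of a transcript and many cells with little cannot be told apart.

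Skeletal and cardiac muscle markers were low. Among protein-coding genes, 67.6% had at least 10 reads. Of 12 skeletal markers 3 had at least 10 reads, and their sum was 11.03 CPM, of which Actn3 gave 9.87 CPM; Ckm, the muscle creatine kinase gene, and the troponin gene Tnnc2 had 1 read each. Of 9 cardiac markers 6 had at least 10 reads, summing to 9.22 CPM, with the troponin gene Tnnt2 at 272 reads and the atrial light chain gene Myl7 at 129 reads. Nppa had 0 reads, for which the exact Poisson interval ends at 0.0703 CPM; the floor of 3 reads is 0.0571 CPM. For comparison, Actc1 had 354 reads and Acta1 270, while the leading markers of the lists, Actn3 and Tnnt2, had 518 and 272; what part such cells had in either level was not tested. Epithelial, leukocyte and endothelial markers summed to 31.4, 19.98 and 183 CPM, the last mostly Kdr at 181 CPM, while Pecam1 had 13 reads. All 5 epithelial, all 5 leukocyte and all 4 endothelial markers had at least 10 reads.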

How the data were processed

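Per the labels' protocols, TRIzol was used on 1 culture and its total RNA was sequenced by SOLiD protocols. The deposited signal is 1 value per gene row. All 20976 values above 0 lay within 0.006 of a whole multiple of 1 step of about 1.176, taken unrounded. By the values, the authors had thus divided read counts by 1 size factor of 0.850. DESeq and mm10 appear in the submitters' processing notes, without roles. Not given in the sources used here: aligner, counting tool, strand setting, read length. Reads were recovered with that step; on simulated libraries of 23386 genes the reads of all genes were recovered. The design had assumed counts or such values; with 1 library no test was run.

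Rows of copies were summed (24214 rows to 23386 genes; 52494688 reads; 1 read is 0.0190 CPM). Shares have exact Clopper-Pearson and levels exact Poisson intervals. Exonic lengths, transcripts and coordinates (1-based) are GENCODE M21, on GRCm38, the assembly mm10 denotes; lengths were found for 99.1% of genes. Words were compared on the transcript strand. Copies absent from the annotated transcripts were not searched. Members and lists were chosen with earlier results of these data known. The text names the 6 genes, leading members of each list, enzymes and regulators of actin, undetected markers and neighbours in rank; further list members, pseudogenes and sequences were chosen after their values were seen. With 1 library, no pattern across samples could be compared. Biopython 1.88, matplotlib 3.10.9, scipy 1.17.1, pandas 2.3.3 and numpy 2.4.6 were run under Python 3.11.15. A few items that these rules would print are not reported here.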

Additional observations from a re-analysis of the deposited data

How the results depend on the processing

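No paired analysis was possible because there is only 1 library, which also leaves no replicate to leave out. The order of the 6 genes was Actb, Acta2, Actg1, Actg2, Actc1, Acta1 under each division tried. Division by exonic length gave shares of 54.2% for Actb, 42.6% for Acta2, 2.82% for Actg1, 0.283% for Actg2, 0.0613% for Actc1 and 0.0493% for Acta1, a ratio of muscle to cytoplasmic actins of 0.754, a ratio of Acta2 to Actg2 of 150.3, and ranks among all genes of 17 for Actb, 22 for Acta2 and 2563 for Actg2. Division by coding length gave 58.9% for Actb, 37.8% for Acta2 and a muscle ratio of 0.614. Division by positions unique among the actins gave, at 50, 35 and 75 bases in turn, 60.6%, 61.2% and 60.1% for Actb, 36.0%, 35.3% and 36.4% for Acta2, 0.262%, 0.255% and 0.268% for Actg2, 0.0530%, 0.0517% and 0.0542% for Actc1, and 0.0421%, 0.0415% and 0.0422% for Acta1. The muscle ratios were 0.571, 0.555 and 0.582, the ratios of Acta2 to Actg2 138, 139 and 136, and those of Actb to Actg1 19.8, 19.9 and 19.7; Actg1 left its interval at 35 bases, with 3.08%. Chosen after seeing the data, division by the matched transcript gave 60.1%, 36.5%, 0.263%, 0.0535% and 0.0416% for Actb, Acta2, Actg2, Actc1 and Acta1, and ratios of 0.585, 139 and 19.7 in the same order. Also chosen then, division by positions unique among all genes gave 61.4%, 32.1%, 6.18%, 0.233%, 0.0473% and 0.0376% for Actb, Acta2, Actg1, Actg2, Actc1 and Acta1, and ratios of 0.480, 138 and 9.94; this division counts fewer positions for Actg1 by construction. A total without the 100 most abundant genes gave 2.25% for the actins and 13204, 8512, 682, 40.2, 9.03 and 6.88 CPM in that order of genes. Actb and Acta2 are among those 100, and their reads were left out of that total but kept as actin reads. The 2.25% and the CPM of Actb and Acta2 are therefore ratios to that total, not shares of it. A coding total gave 1.83%, and 10737, 6922, 555 and 32.7 CPM for Actb, Acta2, Actg1 and Actg2. All 6 genes were detected at 1 and at 50 reads. At 1 read 9 actin-like genes, 12 skeletal muscle and 5 pericyte markers were detected. At 50 reads 0 actin-like genes and 1 skeletal, 2 cardiac, 3 leukocyte and 2 endothelial markers were detected. For comparison, 20976 of the 24214 rows, before copies were summed, had at least 1 read. The share of all genes at 50 reads was not computed, so the counts at 50 reads have no such comparison.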
